A study of Mus musculus with 15 samples.

Results

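The 9 genes described here, Csf1r, Cd14, Tyrobp, Fcer1g, Ctss, Cst3, Psap, Cd68 and Lyz2, were listed as monocyte and macrophage genes. They were taken out of 43472 gene symbols measured in the RNA of plasma extracellular vesicles (EVs) of mice. From which cells the reads of each gene came was not tested. EVs are membrane particles that cells release, and they carry RNA of their cells of origin into the blood. There were 15 libraries, 3 of WT-derived EVs from C57BL/6 mice, 6 of dystrophic-derived EVs from Sgcb null mice, which lack a sarcoglycan of the muscle membrane, and 6 of hypertrophic-derived EVs from mice with enlarged muscle. The hypertrophic mice are MAGIC F1 in the sample labels and Mstn-null in the study's methods, and the labelled tissue is serum where the series text has plasma. Each library was made from the EVs of several pooled mice aged between 3 and 6 months, after preamplification of the RNA, so that a library is a pool and not an animal, and the p-values measure the spread between pools.

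Monocytes circulate in blood and mature into macrophages in tissues, where they take up particles and dying cells. They survive on the growth factor receptor Csf1r, sense bacterial lipopolysaccharide through Cd14, and pass signals from many surface receptors through the adaptors Tyrobp and Fcer1g, which carry a tyrosine motif for kinases such as Syk. What they take up is broken down in lysosomes, which hold the protease Ctss and the lipid-handling protein precursor Psap and carry Cd68 in their membrane, and they secrete the lysozyme Lyz2 and the protease inhibitor Cst3.

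In these EVs the genes fell into very different ranges. Lyz2 was counted in all 15 libraries, Fcer1g in 14, Cst3 in 12 and Psap in 11. Ctss was counted in 7 libraries, Tyrobp in 6, Cd68 in 5, and the receptors Csf1r and Cd14 in 1 each. Across the genome, 169 of the 13281 genes counted in any library, or 1.27%, were counted in all 15, and 2.33% in at least 14. By mean CPM, the reads of a gene scaled to a total of 1000000 reads on genes in each library, Lyz2 ranked 94, Cst3 370, Fcer1g 402 and Psap 827 among these 13281 genes. The level plot shows every value.

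**Figure D1:**
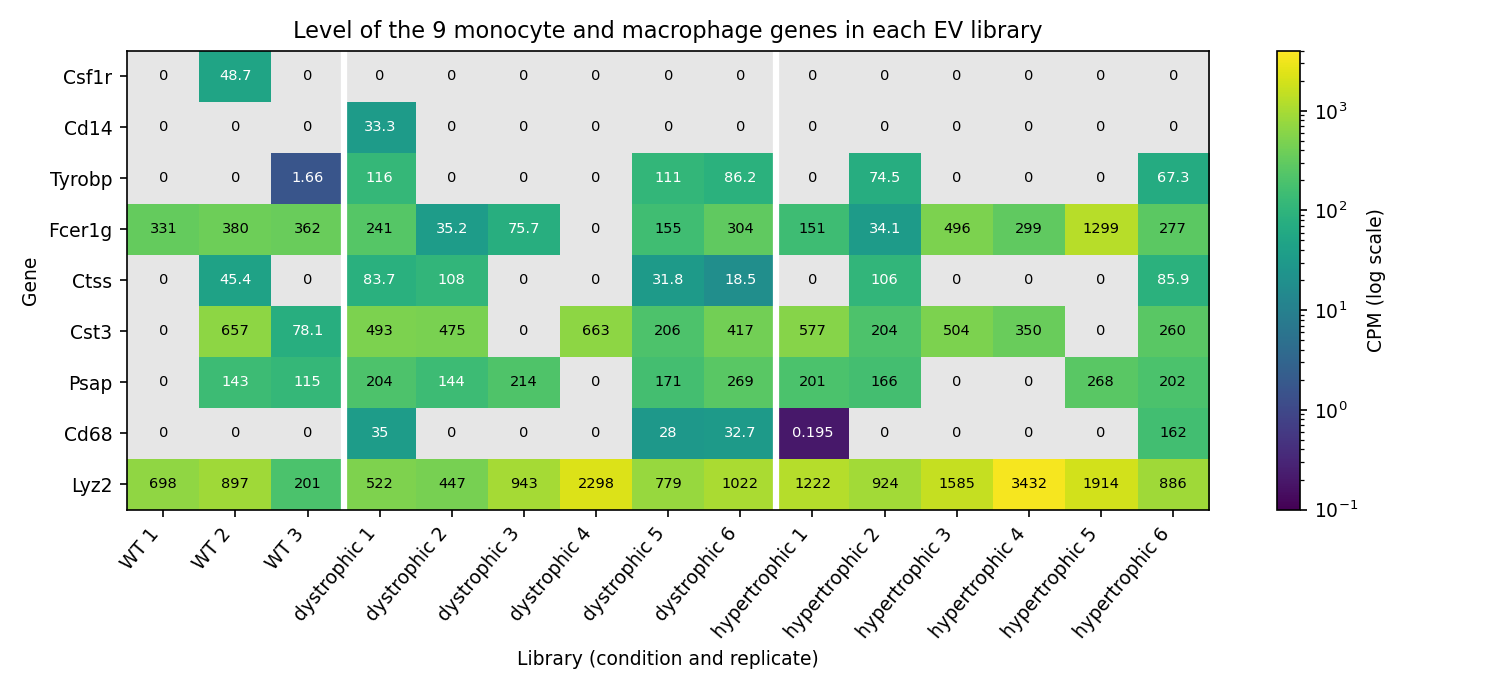
CPM of the 9 genes (rows) in the 15 libraries (columns, grouped by condition), with the colour on a log scale and a count of 0 in grey. Lyz2 was at 201 CPM or more in every library, whereas Csf1r and Cd14 had reads in 1 library each.

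Depth, as reads assigned to genes, ran from 27227 to 32563362. A count of 0 therefore allowed a level of up to 110 CPM in WT replicate 1 and of up to 0.0921 CPM in dystrophic replicate 6, counting error only. The title and the deposited counts carry different library numbers for 6 libraries, the last 3 dystrophic and the opening 3 hypertrophic replicates, with the numbers crossed between these conditions. The edgeR fits, the members counted, their summed level and their overlap between conditions were therefore also computed with these libraries exchanged and with the 9 others alone. The permutation tests and the remaining results follow the labels only. Library numbers in the titles formed a lower and a higher series. All WT libraries were in the lower one, and what the series stand for is not given.

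The surface receptors came first in the order of roles and last in level. Csf1r, the receptor of the growth factors Csf1 and Il34, had 377 reads in WT replicate 2, which was 48.7 CPM, and 0 reads in the other 14 libraries. Cd14, the co-receptor that hands lipopolysaccharide to Tlr4, had 39 reads in dystrophic replicate 1, which was 33.3 CPM, and 0 reads in the other 14. No library held both genes. In these tables a gene that is counted in 1 library can reach 48.7 CPM there and be at 0 in a library of greater depth: dystrophic replicate 6, the deepest, had 0 reads of each. Both genes stayed under the filter on low counts. The fit without that filter, which included them, called 0 members in any comparison. It called 0 of all 13281 genes as well, so it cannot decide on these genes. Csf1r overlaps Hmgxb3 on the opposite strand of chromosome 18, but Hmgxb3 had 0 reads in the library that held Csf1r.

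The partners of these receptors were also sparse. Among the 10 genes of the Csf1 axis, 9 were counted in at least 1 library, Csf1 itself in 2 and Il34 in 0. Klf4, Runx1 and Irf8, transcription factors of the myeloid line, had the highest mean CPM of that list and were counted in 8, 7 and 9 libraries. Among the 15 genes of the lipopolysaccharide receptor pathway, 13 were counted somewhere, Tlr4 in 1 library and its partner Ly96 in 0, while Nfkb1, Irak1 and Myd88, which act inside the cell, were counted in 11, 8 and 9. Of these lists, 7 and 7 genes entered the test, and 0 were called in any of the 3 comparisons. Over all genes tested 0.0145% to 0.029% were called, and this background stands beside each gene list below.

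Fcer1g was the adaptor with the closest agreement among WT-derived EVs. This gene encodes the gamma chain that signals for the high-affinity IgE receptor, for activating IgG receptors and, in platelets, for the collagen receptor Gp6. Its level was 331, 380 and 362 CPM in the 3 WT libraries. In the dystrophic libraries it was 241, 35.2, 75.7, 0, 155 and 304 CPM for replicates 1 to 6. In the hypertrophic libraries it was 151, 34.1, 496, 299, 1299 and 277 CPM. In CPM, all 6 dystrophic libraries lay below all 3 WT libraries, whereas the hypertrophic libraries lay on both sides of WT. TMM, the library scaling of the edgeR test below, had factors of 1.42 for WT replicate 1 and 0.658 for dystrophic replicate 6. With them WT replicate 1 falls below dystrophic replicate 6, so the separation holds for CPM alone. The means were 358 ± 25.2 CPM (SD, n = 3), 135 ± 120 (n = 6) and 426 ± 455 (n = 6).

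This was the member whose conditions did not overlap in CPM, 1 of 9, and 0.276% of all genes tested were likewise lower in every dystrophic than in every WT library. In the other direction (0.479% of genes) no member separated, and neither did any for hypertrophic against WT (0.174% higher and 0.276% lower) or hypertrophic against dystrophic (0.0145% higher and 0.145% lower). The exact two-sided permutation test of the mean CPM, chosen after the values had been seen, gave p = 0.0238 for dystrophic against WT, the smallest p that 3 and 6 libraries allow, and 1.26% of the genes tested had a p under 0.05. Adjusted over all 6887 genes tested it was 0.995. For hypertrophic against dystrophic the same permutation test gave p = 0.119, where 3.15% of genes were under 0.05. The edgeR quasi-likelihood test, which fits the overdispersion of all genes, gave a log2 fold change of -1.21 ± 1.88 (SE) with an adjusted p of 0.979, so the difference was within the spread that this model assigns to the libraries. WT replicate 1 held 9 Fcer1g reads, and its 95% Wilson interval, 174 to 628 CPM, reached below the highest dystrophic value. With the 6 crossed libraries exchanged, the dystrophic range became 34.1 to 496 CPM and overlapped WT. With the 9 matching libraries alone, it was 35.2 to 241 CPM, below WT, as for 0.857% of the genes tested, and the hypertrophic libraries, from 277 CPM, lay above the dystrophic ones, as for 0.755%.

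Platelet markers were examined beside it. The summed level of 10 platelet markers, all of which were counted in some library, was between 26587 and 42201 CPM in WT, between 12472 and 29779 in dystrophic and between 20962 and 47638 in hypertrophic libraries, led by Ppbp, Pf4 and Nrgn. In 4 of 6 dystrophic libraries it lay below all WT libraries. Gp6 was counted in 12 of 15 libraries. The part of platelet RNA in the Fcer1g level was not tested. For any gene here, fewer EVs from a cell type and less RNA per EV cannot be told apart.

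**Figure D2:**
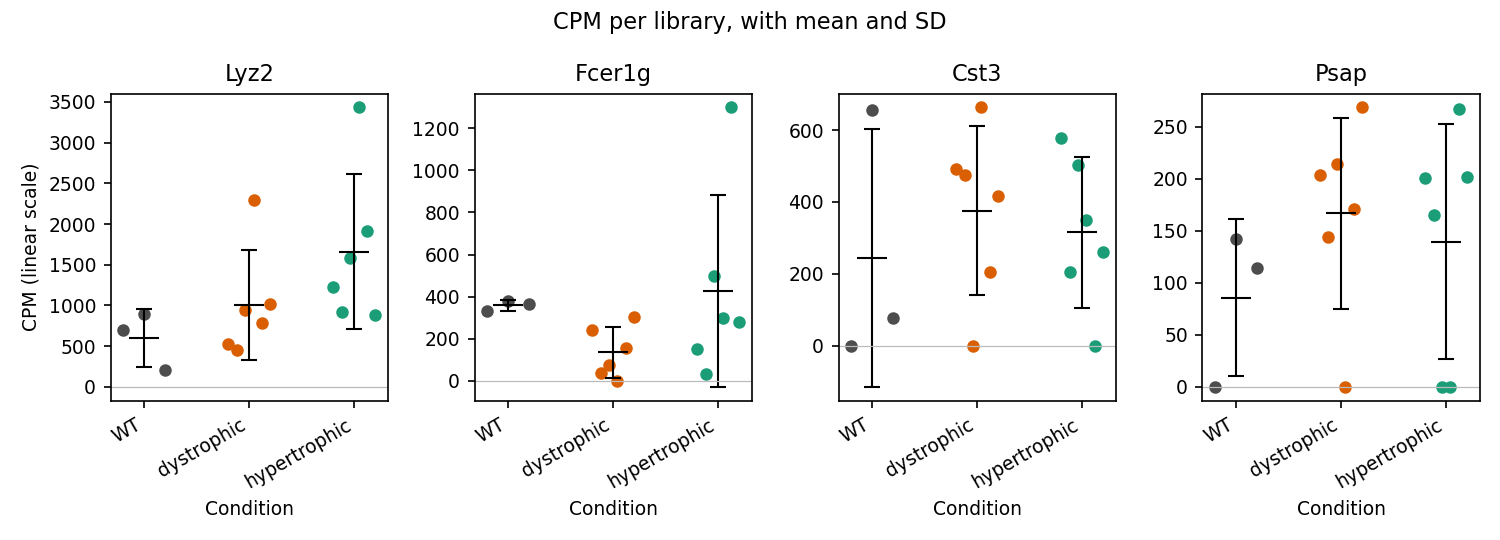
CPM (linear scale) of the 4 most often counted genes by condition, with 1 point per library and the mean ± SD (n = 3, 6 and 6). The dystrophic Fcer1g points lie below the 3 WT points, and the other panels overlap.

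Tyrobp, the adaptor also called DAP12 that pairs with Trem and other receptors, was counted less often than Fcer1g. It was at 0 in WT replicates 1 and 2 and had 1 read, or 1.66 CPM, in WT replicate 3. In dystrophic replicates 1, 5 and 6 it had 116, 111 and 86.2 CPM and in the other 3 dystrophic libraries 0. In hypertrophic replicates 2 and 6 it had 74.5 and 67.3 CPM and in the other 4 hypertrophic libraries 0. Thus 5 libraries held 67.3 CPM or more and the rest held 1 read or none, with each of those 5 from a mutant condition. The mutant conditions supplied 6 dystrophic and 6 hypertrophic of the 15 libraries. WT replicate 2, with 7738568 reads on genes, had 0 Tyrobp reads, which allows 0.388 CPM.

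The fitted Tyrobp differences were large and imprecise. The log2 fold change was 6.29 ± 4.73 (SE, adjusted p = 0.521 by edgeR) for dystrophic against WT and 5.0 ± 4.46 (adjusted p = 0.630) for hypertrophic against WT. The WT side rested on 1 read. Without WT replicate 3 the dystrophic difference was 11.21, a value set by the prior count because WT was then at 0. All 6 libraries with Tyrobp also held Fcer1g, but 8 libraries held Fcer1g without Tyrobp. Where both were counted, Fcer1g was the higher per kilobase of exon in 5 of 6.

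Of the other 20 genes of these adaptor pathways, 18 were counted in at least 1 library. The kinases Lyn and Syk, which dock on the adaptors, were counted in 14 and 12 libraries and the phospholipase Plcg2 in 7. Among the receptors, the platelet receptor Gp6 was counted in 12 libraries, the lectin receptor Clec4d in 7, 4 dystrophic and 3 hypertrophic, and Fcgr2b in 1 WT and 1 hypertrophic library. Fcgr3 was counted in 4 libraries, Trem1 in 3 and Fcgr4 in 2, each of them dystrophic, Trem2 in 1 and Fcgr1 in 0. Dystrophic libraries held a mean of 5039 genes with reads, against 2875 in WT and 3144 in hypertrophic libraries. The share of all genes counted in dystrophic libraries alone was not computed. Of 10 genes of this list tested, 0 were called in any comparison, 9 had a higher fitted value in dystrophic than in WT EVs, and their median log2 fold change was 3.47 where the median of all genes tested was 1.38.

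Cst3 and the lysosomal gene Psap were counted in 12 and 11 libraries, and the lysosomal genes Ctss and Cd68 in 7 and 5. Cst3, the secreted cystatin that inhibits cysteine proteases, had 0, 657 and 78.1 CPM in the WT libraries. Its dystrophic values were 493, 475, 0, 663, 206 and 417 CPM and its hypertrophic values 577, 204, 504, 350, 0 and 260 CPM. Each condition had 1 library at 0 and at least 1 at 577 CPM or above, so the groups overlapped over their whole range. The means were 245 ± 359 CPM (SD, n = 3), 376 ± 236 (n = 6) and 316 ± 210 (n = 6). The fitted log2 fold change was 0.40 ± 1.80 (SE) for dystrophic and -0.15 ± 1.76 for hypertrophic against WT, and the latter turned positive with DESeq2 and with library sizes without TMM scaling.

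Psap encodes prosaposin, from which the saposins that help lysosomal enzymes degrade sphingolipids are cut. Its WT values were 0, 143 and 115 CPM, its dystrophic values 204, 144, 214, 0, 171 and 269 CPM and its hypertrophic values 201, 166, 0, 0, 268 and 202 CPM. In the 11 libraries that held it, the highest value was 2.34 times the lowest, the narrowest range of any member counted in more than 1 library. The log2 fold change was 0.73 ± 2.42 (SE) for dystrophic and 0.19 ± 2.36 for hypertrophic against WT. Within the lower title series alone, the 3 dystrophic libraries, at 144 to 214 CPM, lay above the 3 WT libraries, of which the highest had 143 CPM. In those 6 libraries 4.57% of the genes tested separated in that direction, while the higher series has no WT library and holds dystrophic replicate 4 at 0.

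Ctss, the cathepsin that cuts the invariant chain during antigen presentation and that Cst3 inhibits, had 45.4 CPM in WT replicate 2 and 0 in the other 2 WT libraries. It had 83.7, 108, 31.8 and 18.5 CPM in dystrophic replicates 1, 2, 5 and 6 and 106 and 85.9 CPM in hypertrophic replicates 2 and 6, and 0 elsewhere. All 7 libraries with the protease also held its inhibitor, with Cst3 the higher per kilobase in each, by 2.07 to 24.2 times. A further 5 libraries held Cst3 without Ctss. The pseudogene Hmgb1-ps5, which lies within Ctss, had 1 read in all.

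Cd68, a heavily glycosylated protein of the lysosomal membrane, was at 0 in all 3 WT libraries. It had 35.0, 28.0 and 32.7 CPM in dystrophic replicates 1, 5 and 6, and 162 CPM in hypertrophic replicate 6. Hypertrophic replicate 1 held 1 read, or 0.195 CPM, and the other 7 mutant libraries 0. A WT count of 0 allowed 110, 0.388 and 4.99 CPM in replicates 1 to 3. The edgeR log2 fold changes, 9.42 ± 5.81 (SE, adjusted p = 0.433) for dystrophic and 9.99 ± 5.93 (adjusted p = 0.430) for hypertrophic against WT, depend on the prior count because the WT libraries are at 0, and they bound nothing. DESeq2 called Cd68 in both comparisons (adjusted p = 6.2e-07 and 2.2e-07), where it called 13.5% and 15% of all genes tested. Without hypertrophic replicate 6 the edgeR value for hypertrophic against WT was 1.29.

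Tyrobp, Cd68 and Ctss were counted in overlapping libraries. Dystrophic replicates 1, 5 and 6 and hypertrophic replicate 6 held all 3, while 6 libraries, WT replicate 1, dystrophic replicates 3 and 4 and hypertrophic replicates 3 to 5, held none of them. Tyrobp was in the same state, counted or not, as Cd68 in 12 of 15 libraries and as Ctss in 12 of 15. These are also the libraries rich in genes. The 6 libraries with 6 or more members held 4856 to 8968 genes, and the 6 libraries with 3 or fewer held 797 to 2415, as the plot of members against genes shows.

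**Figure D3:**
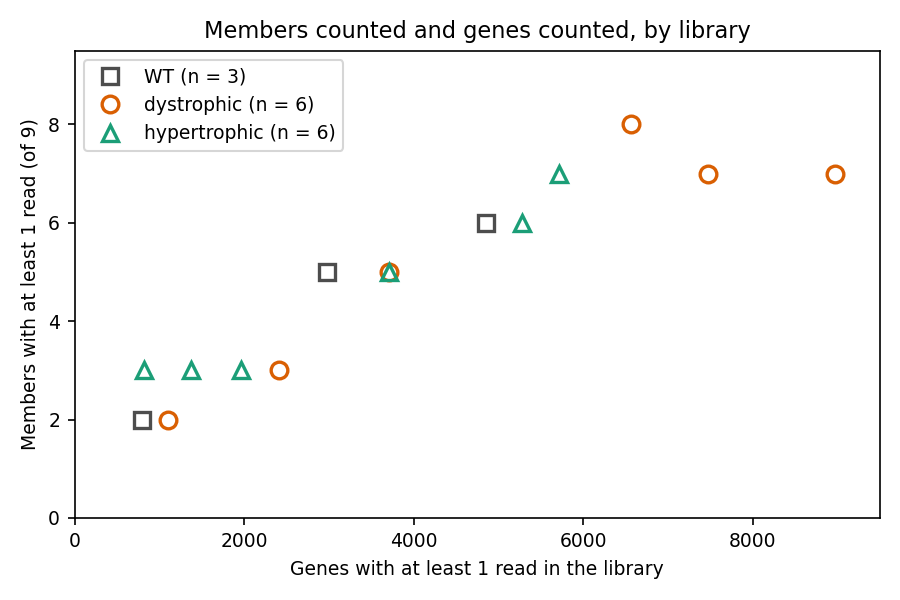
Members with at least 1 read (of 9, y axis) against genes with at least 1 read (x axis), with 1 symbol per library. The libraries with 6 or more members lie at 4856 genes and above in all 3 conditions, and the points of dystrophic replicate 2 and hypertrophic replicate 1 nearly coincide at 5 members.

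The other genes of the lysosome were counted in the same uneven way. Of 22 lysosomal genes outside the 9, 21 were counted in at least 1 library. Lamp1, Ctsd and Npc2, a membrane protein, a protease and a cholesterol carrier, had the highest mean CPM and were counted in 12, 14 and 12 libraries. The cathepsin Ctsl was counted in 6 libraries and the legumain gene Lgmn in 6, with 0 in WT. In the test, 18 of these genes entered, 0 were called in any comparison, and 16 had a higher fitted value in dystrophic than in WT EVs, with a median log2 fold change of 0.78 against 1.38 for all genes tested.

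Lyz2, the lysozyme of macrophages and neutrophils that cleaves bacterial cell walls, supplied 50.5% of all reads on the 9 genes. Its share of a library's member reads ran from 26.5% in WT replicate 3 to 84.1% in hypertrophic replicate 4. The WT libraries had 698, 897 and 201 CPM. The dystrophic libraries had 522, 447, 943, 2298, 779 and 1022 CPM, and the hypertrophic libraries 1222, 924, 1585, 3432, 1914 and 886 CPM. The 3 highest values, from 1914 CPM, were those of 2 hypertrophic libraries and 1 dystrophic library. In CPM, every hypertrophic library but replicate 6 lay above the highest WT value, that of replicate 2. The TMM factors were 0.733 for WT replicate 2 and 1.02, 0.771 and 1.78 for hypertrophic replicates 1, 2 and 5. With these factors, hypertrophic replicates 1, 2 and 5 also fall below WT replicate 2. The means were 599 ± 359 CPM (SD, n = 3), 1002 ± 674 (n = 6) and 1660 ± 953 (n = 6).

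For hypertrophic against WT the exact two-sided permutation test of the mean CPM, chosen after the values had been seen, gave p = 0.0476 for a ratio of means of 2.77, where 0.784% of the genes tested had a p under 0.05, and adjusted over all genes tested it was 1.0. The edgeR test gave a log2 fold change of 0.99 ± 1.26 (SE) with an adjusted p of 0.856. For dystrophic against WT the values were 0.77 ± 1.25 and 0.990, and for hypertrophic against dystrophic 0.22 ± 0.98 and 0.9998. Within the lower title series the Lyz2 means were 599 ± 359 CPM in WT, 637 ± 268 in dystrophic and 1244 ± 331 in hypertrophic libraries (SD, n = 3 each), and the fitted dystrophic difference was -0.16. There all 3 hypertrophic libraries, from 924 CPM, lay above all 3 WT libraries, as did 3.19% of the genes tested. These 3 hypertrophic libraries are among those with crossed library numbers. With the 9 matching libraries alone, 0 members separated for hypertrophic against WT. With TMM scaling, hypertrophic replicates 1 and 2 fall below WT replicate 2. In the higher series, which holds no WT library, the means were 1366 ± 816 and 2077 ± 1281 CPM (n = 3 each).

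Some reads of Lyz2 cannot be told from those of Lyz1, the lysozyme of the gut that lies beside it on chromosome 10 of the mouse genome (GRCm38). Lyz2 (ENSMUSG00000069516.8) spans chr10:117277331-117282321 and Lyz1 (ENSMUSG00000069515.6) chr10:117287797-117292868, both on the minus strand. Their coding sequences in GENCODE M21 have 447 bases each and are 95.1% identical, with 22 differing bases and an identical run of 118 bases. The most alike stretch of 150 bases, bases 276 to 425 of the coding sequence, is shown because reads from it can fit either gene. It lies in more than 1 coding exon, at chr10:117278143-117280666 in Lyz2 and chr10:117288605-117291054 in Lyz1, and the capitals mark the bases that differ.
Lyz2: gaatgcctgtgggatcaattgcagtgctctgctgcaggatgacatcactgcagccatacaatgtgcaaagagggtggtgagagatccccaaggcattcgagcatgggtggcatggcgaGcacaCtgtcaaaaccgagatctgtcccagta
Lyz1: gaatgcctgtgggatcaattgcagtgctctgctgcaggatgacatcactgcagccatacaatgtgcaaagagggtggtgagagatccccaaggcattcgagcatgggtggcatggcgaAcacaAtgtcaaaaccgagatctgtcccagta

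Of the 1267 stretches of 50 bases in the Lyz2 transcript, the length of a read, 15.4% occur unchanged in the Lyz1 transcript. Over all libraries 72941 reads were counted on Lyz2 and 14 on Lyz1, the latter in 4 libraries at 0.977 CPM or less. The deposited counts have a summary line for alignments that were not unique, so reads that fit both genes may have been set aside there. How many of them came from Lyz2 is not given, so the Lyz2 level is uncertain by that number.

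Markers of neutrophils, which also make Lyz2, were counted unevenly. The summed level of 12 neutrophil markers, of which 9 were counted somewhere, was between 287 and 1836 CPM in WT, between 72.1 and 966 in dystrophic and between 6.65 and 1101 in hypertrophic libraries. S100a9, an inflammatory calcium-binding protein that monocytes share, was counted in 14 libraries and S100a8, its partner, in 11. Csf3r was counted in 6 libraries, Retnlg in 4, at up to 352 CPM, Lcn2 in 3 and Ngp and Cxcr2 in 2 each, while Ly6g, Elane and Camp were at 0 in all 15. The libraries with the highest Lyz2 in the dystrophic and hypertrophic groups, replicate 4 of each, had the lowest neutrophil sums of their groups, 72.1 and 6.65 CPM, whereas hypertrophic replicate 5, second in its group with 1914 CPM of Lyz2, had the highest sum of its group, 1101 CPM. The part of neutrophil RNA in the Lyz2 level was not tested.

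Further monocyte and macrophage genes were counted unevenly. Of 18 further monocyte genes 15 were counted in at least 1 library, and Plac8 was counted in all 15, at 31.0 to 1220 CPM, but lymphocytes and neutrophils are also known to express it. Itgal, an integrin chain of leukocytes, was counted in 13 libraries, at up to 371 CPM, and Nr4a1, a nuclear receptor of patrolling monocytes, in 6, at up to 248 CPM. The monocyte marker Ly6c2 was counted in 1 library, Ccr2 in 7 and Cx3cr1 in 5. The summed level of these monocyte genes was 243 to 1139 CPM in WT, 330 to 1063 in dystrophic and 228 to 1613 in hypertrophic libraries. Of 17 further macrophage genes 11 were counted somewhere. Axl, a receptor for dying cells, was counted in 7 libraries, at up to 232 CPM, and the complement genes C1qc and C1qb in 5 and 4, at up to 45.4 and 90.8 CPM. A further 6 were at 0 in all libraries, among them Cd163, Timd4 and Clec4f, and Vsig4 and Marco had reads in hypertrophic replicate 6 alone, at 91.3 and 11.9 CPM. That library also held the highest Cd68 level. The summed level of these macrophage genes was 0 to 327 CPM in WT, 0 to 226 in dystrophic and 0 to 304 in hypertrophic libraries. Of the 8 monocyte and 3 macrophage genes that entered the test, 0 were called in any comparison. Markers of other cells ranged from 0 to 164 CPM in sum for 8 dendritic and natural killer cell genes, led by Ccr7, Klrd1 and Clec9a, and from 0 to 955 for B cells, led by Cd79b, Cd79a and Ms4a1. They ranged from 0 to 754 CPM for T cells, led by Cd3d, Lck and Cd28, and from 22933 to 155950 for red cells, led by Hbb-bs, Hba-a1 and Hba-a2.

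Compared between genes per kilobase of exon, mean levels over the 15 libraries fell from Lyz2 (900 ± 631 CPM per kilobase, SD) through Fcer1g (339 ± 359), Cst3 (257 ± 188), Psap (50.9 ± 35.2), Tyrobp (45.6 ± 68.7), Ctss (23.5 ± 31.4) and Cd68 (13.7 ± 33.6) to Cd14 (1.28) and Csf1r (0.562). Lyz2 was above Fcer1g in 13 of 15 libraries and Cst3 above Psap in 12. Fcer1g was above Cst3 in 9 libraries and below it in 6, and Psap was above Tyrobp in 6 and below it in 5, so these neighbours did not differ beyond their spread. Among the sparse genes Tyrobp was above Ctss in 6 libraries and below it in 2, and Ctss above Cd68 in 5 and below it in 3, with most of the rest tied at 0. The mean difference between neighbours was larger than its SD over libraries for Cst3 and Psap alone (206 ± 197 CPM per kilobase), and for Lyz2 and Fcer1g it was 561 ± 655. Where Psap and Tyrobp were both counted, Psap was the higher in 1 of 6 libraries.

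Members were at 0 in 63 of their 135 pairs of gene and library. Some of these zeros stood where the depth would have allowed reads. For 100 of the 135 pairs, 10 or more reads would follow from the mean of the remaining libraries of that condition, and in 33 of the 100 the gene had 0 reads, against 56.1% of such pairs over all genes. Cd14 was at 0 in 5 of 5 such pairs, Csf1r in 1 of 1, Cd68 in 7 of 11, Ctss in 7 of 13, Tyrobp in 6 of 11, Cst3 in 3 of 15, Psap in 3 of 14, Fcer1g in 1 of 15 and Lyz2 in 0 of 15. Cd14 and Csf1r, counted in 1 library each, could only be at 0 in such pairs, and Lyz2, counted in all 15, could not. Dystrophic replicate 4, where Fcer1g had 0 of 1608699 reads, held 3696 Lyz2 reads.

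The number of members counted was 2, 6 and 5 in WT, 8, 5, 3, 2, 7 and 7 in dystrophic and 5, 6, 3, 3, 3 and 7 in hypertrophic libraries. The means were 4.33 ± 2.08, 5.33 ± 2.42 and 4.50 ± 1.76 (SD, n = 3, 6 and 6), and the conditions overlapped. At an equal depth of 27227 reads, the number expected by the hypergeometric formula was 3.77, 4.74 and 4.19. The summed level of the 9 genes was 1319 ± 750 CPM in WT, 1794 ± 670 in dystrophic and 2625 ± 979 in hypertrophic libraries, of which the 6 genes other than Lyz2, Cst3 and Psap made up 390 ± 75.2, 249 ± 207 and 509 ± 422 CPM. In dystrophic replicate 4, these 6 genes had 0 reads. TMM-scaled sums of all 9 genes were 734 to 3034 CPM in WT, 866 to 3388 in dystrophic and 2002 to 2486 in hypertrophic libraries. These ranges overlapped.

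Over all 9 genes, 7 passed the filter on low counts, and 0 of 7 were called by edgeR at an adjusted p under 0.05 in any comparison. The background was as low: edgeR called 0.0145% of the 6887 genes tested for dystrophic against WT, 0.029% for hypertrophic against WT and 0.0145% for hypertrophic against dystrophic. At an unadjusted p under 0.05 the counts were again 0 of 7 members, beside 2.02%, 8.02% and 12% of all genes. DESeq2 called 1, 1 and 0 members, the 1 being Cd68, beside 13.5%, 15% and 3.53% of all genes. The biological coefficient of variation was 3.04, that is, replicate levels of a gene typically spread by more than its mean.

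**Figure D4:**
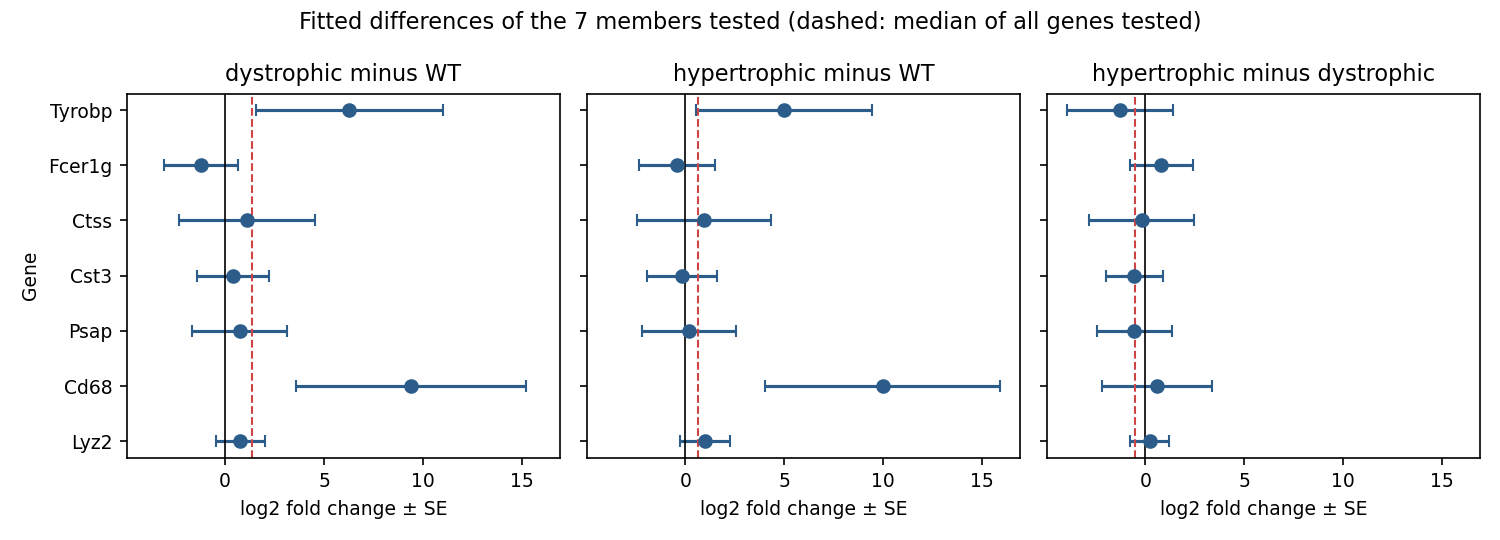
Log2 fold changes of the 7 tested members in the 3 comparisons, with SE as bars, from the edgeR fit to 15 libraries, and the median of all genes tested as a dashed line. Cd68 and Tyrobp stand to the right against WT with the longest bars, and Fcer1g lies to the left of the dashed line for dystrophic minus WT, at -1.21.

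The members' fitted directions are given beside those of all genes. Their median log2 fold change was 0.77 for dystrophic against WT, with 6 of 7 above 0, beside a median of 1.38 over all genes tested. For hypertrophic against WT it was 0.94, with 5 of 7 above 0, beside 0.66. For hypertrophic against dystrophic it was -0.16, with 3 of 7 above 0, beside -0.52. Both comparisons against WT share the WT libraries. Fcer1g stood lowest among the members for dystrophic against WT, where 13.4% of all genes had a lower value, and highest for hypertrophic against dystrophic, at 0.80 ± 1.59 (SE), where 80.4% had a lower value. Its fitted hypertrophic difference from WT, -0.41 ± 1.91, turned positive with DESeq2 and without TMM scaling.

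Genes counted in exactly the same libraries as a member were found for all 7 members counted in at least 5 libraries, among 5007 candidates. For Lyz2 the most alike in level were Taldo1, an enzyme of the pentose phosphate pathway, and the ribosomal protein gene Rpl9, out of 168 genes that were also counted in all libraries. For Fcer1g they were Rab11a and Prkar1a, for Cst3 Lamp1 and Ecm1, for Psap Eno1 and Rtcb, for Ctss Tox4 and Smc3, for Cd68 Csnk1g3 and Hadhb, and for Tyrobp 4930523C07Rik and Htatsf1. The mean absolute difference of log2(CPM + 1) from the member over the 15 libraries was 0.50 for Taldo1, 0.52 for Lamp1 and 1.02 for Rab11a. The numbers of genes with the same pattern were 39 for Ctss, 32 for Cd68, 15 for Tyrobp, 15 for Fcer1g, 10 for Cst3 and 10 for Psap, so that these patterns of presence were shared with many genes.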

How the data were processed

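RNA of plasma EVs was measured in 15 libraries (3 WT, 6 dystrophic, 6 hypertrophic). Per the labels and the study's methods, the authors aligned single reads with TopHat to mm10. The submitters' processing notes name HTSeq and DESeq. The annotation and strand setting are not given in the sources used here. The authors deposited raw counts of reads per gene symbol, unnormalised and unfiltered. The 5 summary lines of each table, 57.9% to 99.2% of its numbers, were left out. Depth was 27227 to 32563362 reads on genes, which limits low genes in shallow libraries. Intervals (95%, Wilson) and the floor of 3 counts cover counting error only.

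CPM was computed over all gene rows, and per kilobase from the exon union of GENCODE M21, which held 39544 of the 43472 symbols. Of the listed genes, 3 were found under an older symbol in the RefSeq table. Counts were tested with edgeR 4.0.16 (limma 3.58.1, R 4.3.3) by TMM, filterByExpr and a quasi-likelihood model of the 3 conditions over the 15 libraries, with Benjamini-Hochberg adjustment over 6887 genes. DESeq2 1.42.0 and other filters, scalings and sample sets were alternatives, as was, chosen after seeing the data, an exact permutation test of mean CPM (two-sided, the lower of both one-sided p-values multiplied by 2). The edgeR and permutation procedures were tested on simulated data. Python 3.11.15 with numpy 2.4.6, pandas 2.3.3, scipy 1.17.1 and matplotlib 3.10.9 did the rest.

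The members, gene lists and tests were chosen with earlier results of these data known. By rule the text names all 9 members, Lyz1, from each other list the genes called or with the 3 highest mean CPM, and for each member counted in at least 5 libraries the 2 most alike genes. Other genes named, such as Gp6, Vsig4, Clec4d, Csf3r and markers at 0, were picked after their values were seen. Groups follow the labels, and replicate numbers, given in accession order, pair nothing.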

Additional observations from a re-analysis of the deposited data

Results flagged for a closer look

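In 4 of 21 sets of 6 libraries examined, the highest library stood apart by Dixon's criterion, where chance alone would mark about 1 in 20 sets of normally distributed values. That rate does not hold for Cd14 and Cd68, which were at 0 in most of the 6 libraries, so that a lone library with many reads stands apart by construction. Lyz2 was at 2298 CPM in dystrophic replicate 4, where the next highest dystrophic library had 1022 CPM. Fcer1g was at 1299 CPM in hypertrophic replicate 5, where the next had 496 CPM. Cd68 was at 162 CPM in hypertrophic replicate 6, where the next had 0.195 CPM, and Cd14 at 33.3 CPM in dystrophic replicate 1, where the other 5 had 0. Dystrophic replicate 4 held 1103 genes and hypertrophic replicate 5 held 814, whereas dystrophic replicate 1 held 6567 and hypertrophic replicate 6 held 5710. The part of the number of genes in these values was not tested.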

How the results depend on the processing

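No paired analysis was possible because the labels give no replicate numbers. The count of 0 members called was the same in every edgeR setting run, with 5 to 9 members tested, and in each fit with 1 library left out (0 to 0). DESeq2 called 1 member, Cd68, for dystrophic and 1 for hypertrophic against WT (log2 fold change 21.97 and 22.80), and 0 between the mutants. Over all genes it called 933, 1031 and 243 in the 3 comparisons in that order, and 7, 9 and 4 of the related genes, where edgeR called 1, 2 and 1 genes and 0, 0 and 1 related genes (Hbb-bs, 0 without the filter). For dystrophic against WT, edgeR called 3 genes without TMM, 0 without the filter, 0 without mitochondrial and hemoglobin genes, 2 with the crossed labels exchanged, 3 with the 9 matching libraries and 6 in the lower title series. For hypertrophic against WT it called 0 without the filter and 0 without mitochondrial and hemoglobin genes, and between the mutants 0 in each of these, 0 with the exchange, 0 with the matching libraries and 2 in the lower series. The permutation test called 0 in each. At an unadjusted p under 0.05, there were 580, 1120 and 4382 genes without the filter, and 127, 529 and 815 without mitochondrial and hemoglobin genes. With 1 library left out, the counts were 1 to 2, 1 to 3 and 0 to 2.

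Of 509 refitted fold changes of members, 26 changed sign. Against WT, the Lyz2 value in dystrophic EVs became -0.24 with the matching libraries and -0.16 in the lower series. For hypertrophic EVs, Cst3 became 0.41 with DESeq2, 0.36 without TMM, 0.082 with the exchange and 0.37 in the lower series, and Fcer1g 0.23 with DESeq2 and 0.26 without TMM. Between the mutants, Cst3 became 0.30 in the lower series, Psap 0.17 and Tyrobp 0.63 with the exchange, and Cd68 -2.92 with the series as a covariate. Leaving out 1 library at a time, Cst3 ranged from -0.17 to 2.81 for dystrophic and from -0.73 to 2.25 for hypertrophic against WT, Ctss from -0.013 to 10.13 and Psap from -0.38 to 0.56 for hypertrophic against WT, and between the mutants Ctss from -1.04 to 0.31 and Cd68 from -8.05 (without hypertrophic replicate 6) to 0.98. Without TMM the median of all genes moved from 1.38 to 1.57, 0.66 to 1.02 and -0.52 to -0.37. The cause was not tested.

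Members counted kept within 1 SD in all settings, and so did the summed level, except that without Lyz2, Cst3 and Psap it was 390, 249 and 509 CPM. Within that spread, TMM scaling lowered the sums of hypertrophic replicates 4 and 5 from 4082 and 3480 CPM to 2237 and 2002 CPM. The highest sum then lay in dystrophic replicate 6, at 3388 CPM. With 1 library left out, the mean number counted was 3.50 to 5.50 in WT, 4.80 to 6.00 in dystrophic and 4.0 to 4.80 in hypertrophic EVs, and the mean sum 893 to 1600, 1560 to 1911 and 2333 to 2848 CPM. Depth limits WT most, as WT replicate 1 had 27227 reads.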
